A study of Mus musculus with 2 samples.

Results

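The 8 genes described here are aldo-keto reductases of the Akr1 family: Akr1a1, Akr1b3, Akr1b7, Akr1b8, Akr1b10, Akr1c18, Akr1c14 and Akr1e1. They were chosen by gene name, and every transcript model assigned to them in the long-read tables of the mouse adrenal gland was taken. This gave 96 of the 88152 models of replicate 1 and 80 of the 92074 models of replicate 2, on 8 of the 16674 annotated genes with reads in either library. In this assay a cDNA is sequenced over its whole length, and the exon chain of a transcript is seen in a single read. It holds a single group, wild-type adrenal glands of C57BL/6J mice from The Jackson Laboratory, with 1 library from each of 2 biosamples. Both biosamples point to the same donor record, the free text calls the mice female while the sex field was not filled, and the age is unknown. Whether the biosamples were separate animals or pools is not stated, so the spread between the libraries may in part be technical. No agent, allele or time point was varied, and the only comparison possible was replicate 2 against replicate 1.

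Aldo-keto reductases are barrel-shaped cytosolic enzymes that use NADPH to reduce aldehydes and ketones to alcohols. In the adrenal cortex, cleavage of the cholesterol side chain releases isocaproaldehyde, a reactive aldehyde, and Akr1b7 is known for its high, corticotropin-dependent expression there and for clearing it. Akr1b3 is aldose reductase, the enzyme of the polyol pathway that turns glucose into sorbitol. Akr1a1 is aldehyde reductase, which also acts in the synthesis of ascorbate. Akr1c18 is a 20-alpha-hydroxysteroid dehydrogenase that inactivates progesterone and marks the X-zone, a transient inner zone of the mouse cortex. Akr1c14 is a 3-alpha-hydroxysteroid dehydrogenase, and Akr1e1 reduces 1,5-anhydrofructose, a sugar made from glycogen.

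On mm10, the 4 Akr1b genes lie together on chromosome 6. Akr1b3 (ENSMUSG00000001642.18) runs on the minus strand from 34302434 to 34317478. Akr1b8 (ENSMUSG00000029762.6), from 34354119 to 34368463, Akr1b10 (ENSMUSG00000061758.13), from 34384218 to 34396950, and Akr1b7 (ENSMUSG00000052131.7), from 34412334 to 34423142, follow each other on the plus strand. Chromosome 13 holds Akr1c14 (ENSMUSG00000033715.15, plus strand, 4049011 to 4090688), Akr1c18 (ENSMUSG00000021214.14, minus strand, 4132615 to 4150654) and Akr1e1 (ENSMUSG00000045410.18, minus strand, 4590750 to 4609174). Akr1a1 (ENSMUSG00000028692.14) lies on the minus strand of chromosome 4, from 116636510 to 116651680.

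The genes share much of their exon plan. In the main annotated models of Akr1b3, Akr1b7, Akr1b8 and Akr1b10, the exons from the second to the ninth had the same lengths in all 4 genes: 168, 117, 78, 123, 107, 82, 84 and 83 nt. Akr1c18, Akr1c14 and Akr1e1 shared the first 4 of these lengths, and Akr1a1 had other exon lengths. Exon 4, of 78 coding nt, is shown because it follows the intron on which the results for Akr1b7 turn, and because an annotated model of Akr1c18 leaves it out. Capitals mark bases unlike those of Akr1b7 at the same place, in sequences of GENCODE M21 transcripts read 5′ to 3′.
Akr1b7: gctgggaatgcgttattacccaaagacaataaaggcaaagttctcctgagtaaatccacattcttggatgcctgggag
Akr1b10: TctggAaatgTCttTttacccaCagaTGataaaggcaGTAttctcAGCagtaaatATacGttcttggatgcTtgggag
Akr1b8: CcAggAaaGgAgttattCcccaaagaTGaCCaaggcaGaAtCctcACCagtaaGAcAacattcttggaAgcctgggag
Akr1b3: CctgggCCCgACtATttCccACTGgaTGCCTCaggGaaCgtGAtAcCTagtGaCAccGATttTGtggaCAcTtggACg
Akr1c18: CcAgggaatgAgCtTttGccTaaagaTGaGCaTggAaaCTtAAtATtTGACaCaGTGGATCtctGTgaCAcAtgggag
Exon 4 of Akr1b10 was 76.9% identical to that of Akr1b7, exon 4 of Akr1b8 74.4%, that of Akr1c18 53.8%, while exon 4 of Akr1b3 differed from it in 39 of 78 bases. Over the coding sequence, Akr1b7 was 89.3% identical to Akr1b10, 85.7% to Akr1b8 and 73.9% to Akr1b3. Akr1c18 and Akr1c14 were 76.8% identical, and Akr1a1 was between 62.0% and 65.3% identical to the others.

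Such likeness bears on how far reads can be told apart. Of all 31-base words of the main transcript, 10.1% in Akr1b7, 10.5% in Akr1b8 and 14.4% in Akr1b10 occurred in another annotated gene. In Akr1b3 the share was 63.5%, mostly shared with the processed pseudogenes Gm6644, Gm6736 and Gm12138, which had 2, 0 and 0 reads in replicate 1 and 1, 0 and 0 in replicate 2. The split of reads between Akr1b3 and these copies is therefore uncertain. In Akr1a1 no such word was shared with another gene.

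Levels are given as reads summed over all models of a gene, and as CPM, the count divided by all reads of the library and scaled alike in both. The libraries held 810239 (replicate 1) and 587861 reads (replicate 2). A gene with a count of 0 could have up to 3 reads, which is 3.70 CPM in the first library and 5.10 CPM in the second. Intervals are at 95% and cover counting error only, since amplified reads are not independent molecules. One read stands for 1 cDNA whatever its length, so CPM of different genes can be set side by side, although capture may depend on length. The 8 genes together held 6498 reads (8020 CPM) in replicate 1 and 1351 reads (2298 CPM) in replicate 2, a mean of 0.516 ± 0.405% of the library (SD, n = 2).

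**Figure D1:**
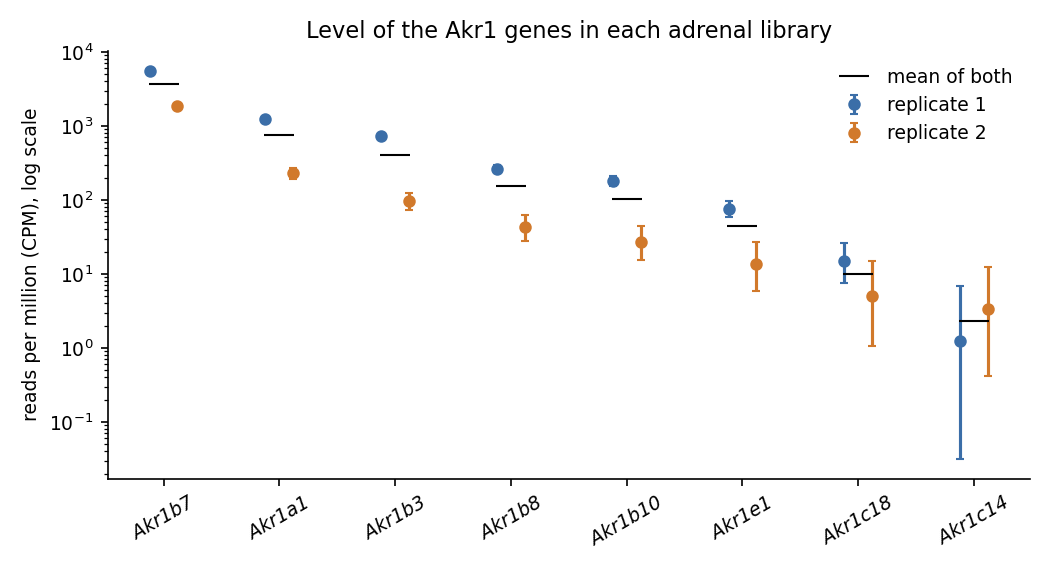
Level of each gene in CPM on a log axis, with 1 point per library, its exact Poisson interval, and the mean of both as a black line. Akr1b7 lay highest in both libraries, at 5502 and 1881 CPM, and all genes but Akr1c14 had the higher point in replicate 1.

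Akr1b7 was by far the most read of the 8 genes. It had 4458 reads (5502 CPM) in replicate 1 and 1106 reads (1881 CPM) in replicate 2, a mean of 3692 ± 2560 CPM (n = 2). It stood at rank 13 of all genes by mean level, at rank 11 in replicate 1 and 36 in replicate 2. Akr1b7 took 82.5% (95% Clopper-Pearson interval 81.5 to 83.5) of the reads of the 4 Akr1b genes in replicate 1 and 91.9% (90.2 to 93.3) in replicate 2. For each Akr1b3 read there were 7.61 Akr1b7 reads (6.98 to 8.31) in replicate 1 and 19.4 (14.9 to 25.8) in replicate 2. The intervals did not overlap, so the lead of Akr1b7 over aldose reductase was larger in replicate 2 beyond counting error.

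Akr1a1 came next, with 1019 reads (1258 CPM) in replicate 1 and 134 reads (228 CPM) in replicate 2, a mean of 743 ± 728 CPM. Akr1b3 had 586 reads (723 CPM) and 57 reads (97.0 CPM), a mean of 410 ± 443 CPM. Akr1a1 stood above Akr1b3 in both libraries, by 1.74 (1.57 to 1.93) and 2.35 (1.71 to 3.26) reads to 1.

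Akr1b8 had 213 reads (263 CPM) in replicate 1 and 25 reads (42.5 CPM) in replicate 2, a mean of 153 ± 156 CPM. Akr1b10, its neighbour, had 147 reads (181 CPM) and 16 reads (27.2 CPM), a mean of 104 ± 109 CPM. The order of these neighbours was beyond counting error in replicate 1, with 1.45 Akr1b8 reads for each Akr1b10 read (1.17 to 1.80), and not in replicate 2, with 1.56 (0.802 to 3.13). In both genes the spread between libraries exceeded the distance between the genes.

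Akr1e1 had 62 reads (76.5 CPM) in replicate 1 and 8 reads (13.6 CPM) in replicate 2, a mean of 45.1 ± 44.5 CPM. The Akr1c genes were near the limit of detection. Akr1c18 had 12 reads (14.8 CPM) and 3 reads (5.10 CPM), and Akr1c14 had 1 read (1.23 CPM) and 2 reads (3.40 CPM). The intervals of Akr1c18 and Akr1c14 overlapped in replicate 2, so their order was not detectable there. In RNA of a whole gland, fewer cells of a type and less RNA per cell cannot be told apart, which holds for the X-zone gene Akr1c18 and for Akr1b7 alike.

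The labelled tissue was checked by marker genes. The fasciculata markers Cyp11b1 and Hsd3b1 had between 2916 and 18259 reads in each library, and all 6 chromaffin markers, genes of the medulla, had reads in both. Markers of the kidney, which lies beside the gland, had 0 reads for all 5 genes. Of 5 liver markers, 3 had 21 reads together in replicate 1 and 3 in replicate 2, with Alb and Serpina1a at 0. All 3 X-zone markers tested, Akr1c18, Thrb and Cyp2f2, were called higher in replicate 1 by an exact binomial test described below, beside 66.2% of all genes called and 35.6% called in that direction, and the call of Akr1c18 was lost with other scalings or with no filter. With the length trend removed, Thrb was called higher in replicate 2 and the other two were not called. The summed level of the X-zone list was 557 CPM in replicate 1 and 366 CPM in replicate 2, of which Cyp2f2 made up 480 and 306 CPM, and Pik3c2g had 0 and 2 reads. The 4 fasciculata genes, Akr1b7 among them, were split, with 3 called higher in replicate 1 and Cyp11b1 higher in replicate 2. With the length trend removed, Cyp11b1 was called higher in replicate 1, Akr1b7 higher in replicate 2, and Mc2r and Hsd3b1 were not called.

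Markers of other cell types moved between the libraries too. The 4 zona glomerulosa genes summed to 226 CPM in replicate 1 and 1061 CPM in replicate 2, with 3 of 4 called higher in replicate 2 and none in replicate 1. Cyp11b2, the aldosterone synthase among them, had 16 and 191 reads, a log2 ratio of 3.53, and 5.67 with the length trend removed. Endothelial genes summed to 212 and 665 CPM, with 2 of 4 tested called higher in replicate 2. Macrophage genes summed to 1154 and 264 CPM, of which Lyz2 made up 896 and 100 CPM. They were split, with 3 of 5 called higher in replicate 1 and 2, Csf1r and Adgre1, higher in replicate 2. Adipocyte genes went from 207 to 40.8 CPM and erythroid genes from 1303 to 162 CPM, with 3 of 4 and 2 of 3 tested called higher in replicate 1. Beside these counts, 35.6% of all genes were called higher in replicate 1 and 30.6% higher in replicate 2. Of these lists, 2 glomerulosa, 2 endothelial and 2 erythroid genes were, with the length trend removed, called higher in replicate 2, and 1 macrophage gene higher in replicate 1. The shares of all genes were then 21.3% higher in replicate 2 and 21.1% higher in replicate 1. The part of these markers in the members' differences between the libraries was not tested.

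Reads of Akr1b7 fell on a single annotated model, Akr1b7-201, with 10 exons and 1281 nt, and on unannotated variants of it. The models were made by TALON, which puts each read into a class: annotated, incomplete match (part of the junctions of an annotated transcript), known splice sites in a new combination, an unannotated splice site, or genomic (mostly unspliced). A stretch of 40 bases across each of 3 exon junctions of Akr1b7 is given, since the introns removed at these points were the ones most often kept in replicate 2. Capitals mark the downstream exon.
Exons 3 and 4: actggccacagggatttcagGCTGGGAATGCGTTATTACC
Exons 6 and 7: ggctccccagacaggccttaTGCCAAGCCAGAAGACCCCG
Exons 9 and 10: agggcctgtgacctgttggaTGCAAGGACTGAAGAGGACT

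All of these bases are coding. Intron 3 lies on chromosome 6 from 34416235 to 34417282 (1048 nt), intron 6 from 34419515 to 34419918 (404 nt) and intron 9 from 34421146 to 34422845 (1700 nt). The length of none of the 3 is a multiple of 3.

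The main difference in structure was that replicate 2 kept introns of Akr1b7 and replicate 1 hardly did. Intron 3 was kept in 42 of 4389 reads that covered it in replicate 1, 0.957% (0.691 to 1.29), and in 356 of 1018 in replicate 2, 35.0% (32.0 to 37.99). Fisher's exact test, with Benjamini-Hochberg adjustment over 32986 introns of all genes, gave an adjusted p of 8.85e-226. Intron 6 was kept in 6 of 4394 reads (0.137%) and in 130 of 982 (13.2%, 11.2 to 15.5), and intron 9 in 2 of 4364 (0.0458%) and in 124 of 970 (12.8%, 10.7 to 15.0). The intervals of the libraries did not overlap at any of the 3 introns. This test was added after the data had been seen, and it compares the reads of these libraries, with no replicate check. Many of the reads behind introns 6 and 9 were on incomplete matches. With these left out, an alternative added after seeing the data, the difference fell from 34.0 to 24.0 percentage points at intron 3, from 13.1 to 6.92 at intron 6 and from 12.7 to 0.949 at intron 9 (adjusted p 0.000176, Fisher's exact test). The most read structures that kept intron 9 were classed as incomplete matches, among them 1 with 0 and 38 reads that kept introns 6 and 9 and lies in a stretch shared with the pseudogene Gm13857. Other structures, which kept intron 9 alone, introns 3 and 9, or introns 3, 6 and 9, ran between both annotated ends. They had 15, 27 and 12 reads in replicate 2 and were classed as incomplete matches too. A read that keeps intron 9, the last one, lacks the last junction. Leaving out this class thus removes reads that kept intron 9 over the whole gene, and cannot check the difference there. The part of these structures in the retention difference was not tested further.

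**Figure D2:**
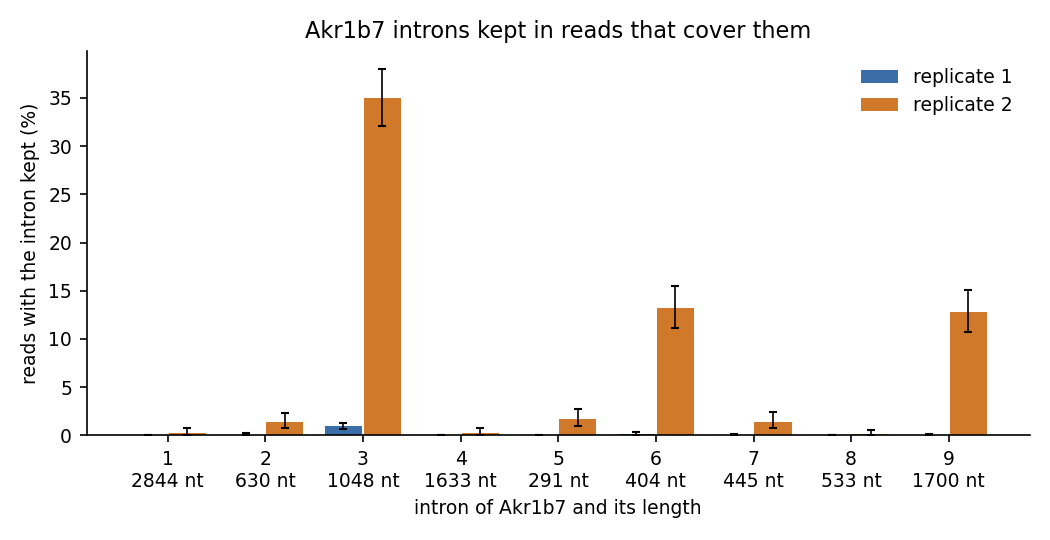
Share of reads that kept each intron of Akr1b7, as a percent of the spliced reads that covered it, with exact 95% intervals for each library. Introns 3, 6 and 9 stood at 35.0%, 13.2% and 12.8% in replicate 2, and no intron passed 1% in replicate 1.

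The other introns of Akr1b7 were kept rarely. Introns 2, 5 and 7 were called too, at 1.39%, 1.72% and 1.43% in replicate 2 against 0.0686%, 0% and 0.0454% in replicate 1. Introns 1, 4 and 8 were not called, with at most 2 reads that kept them in replicate 2. In all, 6 of 9 Akr1b7 introns were called higher in replicate 2, beside 1.18% of all introns tested that were called in that direction and 1.24% in either. Of 3829 genes with a tested intron, 221 had at least 1 called intron and 6 had at least 6, with 4 genes above Akr1b7. These shares and counts cover introns with at least 10 reads in each library, of which 6880 had a retained read in either. Each Akr1b7 intron had at least 921 reads in each library, so small shares could be called there. The called share among introns of like depth was not worked out. Among the 2721 introns with at least 100 reads in each library, intron 3 of Akr1b7 was the 8th most retained in replicate 2. Introns 6 and 9 stood at ranks 41 and 43 there, and the median intron was at 0%.

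Intron 3 was often kept alone, while introns 6 and 9 were mostly kept with another. Of 919 reads of replicate 2 that spanned introns 3 to 9, 637 (69.3%, 66.2 to 72.3) kept none of them, and 156 (17.0%, 14.6 to 19.6) kept intron 3 alone. Introns 3 and 6 together were kept in 39 reads (4.24%), introns 3 and 9 in 27 (2.94%), and introns 3, 6 and 9 in 16 (1.74%). Intron 6 alone was kept in 2 of the 75 reads that kept it, and intron 9 alone in 15 of 68. In replicate 1, 4335 of 4361 such reads (99.4%) kept none and 22 (0.504%) kept intron 3 alone. Intron 3 was thus the one kept most often, alone or joined with another, in both libraries.

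**Figure D3:**
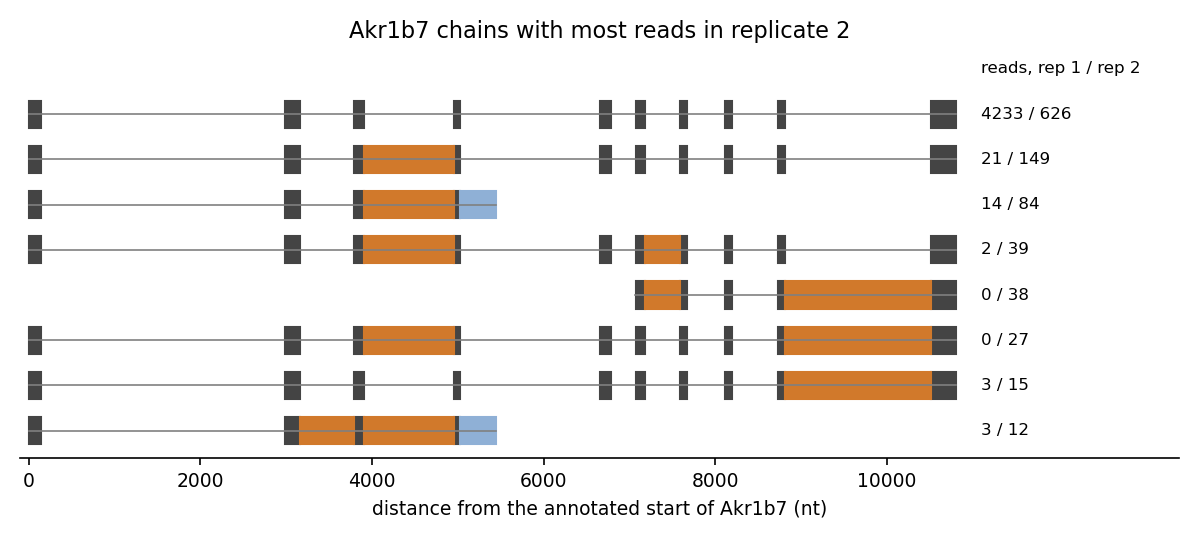
The 8 spliced structures of Akr1b7 with most reads in replicate 2, drawn by distance from the annotated start, with reads in replicates 1 and 2 at the right. Dark boxes are annotated exons, orange boxes are introns that were kept, and pale blue marks sequence of intron 4 in models that end there. The annotated structure had 4233 and 626 reads, and the structure that kept intron 3 had 21 and 149.

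The structures with kept introns are longer than the annotated one, and replicate 2 held more reads of long transcripts in general. The annotated structure had 4233 and 626 reads, a log2 ratio of replicate 2 over replicate 1 of -2.76 on TMM-scaled library sizes. The full structure that kept intron 3, of 2329 nt, had 21 and 149 reads and a log2 ratio of 2.79. The difference between the 2 structures was 5.55 on the log2 scale. A smooth curve of the log2 ratio by model length over all genes gave -3.16 at 1281 nt and 0.03 at 2329 nt, a difference of 3.19. The part of length in the retention difference was not tested further.

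Intron 3 was kept less often in the other Akr1b genes than in Akr1b7. In replicate 2, intron 3 was kept in 0 of 55 reads of Akr1b3, 0 of 25 of Akr1b8 and 0 of 13 of Akr1b10, which allow shares of up to 5.45%, 12% and 23.1%. Fisher's exact test of each gene against Akr1b7 within replicate 2 gave adjusted p-values of 2.24e-09, 0.000195 and 0.0146. The test was adjusted over 9 pairs and chosen after the data had been seen. It covered introns 3, 6 and 9 only, taken because Akr1b7 kept them most in this same library. The direction was thus favoured in advance, and these p-values cannot serve as support. For introns 6 and 9 the test passed for Akr1b3 (adjusted p 0.0146 and 0.0279, Fisher's exact test) and not for Akr1b8 or Akr1b10, which had between 13 and 16 reads there. Akr1b3 itself kept intron 8 in 0 of 580 reads in replicate 1 and in 4 of 53 in replicate 2 (7.55%, 2.09 to 18.2; adjusted p 0.00524, Fisher's exact test), its only called intron of 9. At intron 8 the order of the genes was the other way, with 1 of 982 Akr1b7 reads (0.102%) that kept it in replicate 2. Akr1b8, Akr1b10 and Akr1a1 had no called intron among 26 tested, beside 1.24% of all introns tested that were called. Akr1b8 and Akr1b10 had between 12 and 25 reads at each intron in replicate 2. There, 1 read each kept introns 5 and 7 of Akr1b8 (7.69%) and introns 4, 7 and 9 of Akr1b10 (6.67%, 6.25% and 6.25%). Akr1a1 kept none of its 8 introns in any spliced read. The 25 introns of Akr1c18, Akr1c14 and Akr1e1 had too few reads for a test.

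Some Akr1b7 models ended early. Models with 21 reads in replicate 1 and 105 in replicate 2 ended in intron 4, at positions 34417771 and 34417777, 411 and 417 nt into the intron. The most read of these kept intron 3 and had 14 and 84 reads. In replicate 2, position 34417777 was also the start of other Akr1b7 models, among them an unspliced one with 10 reads. Over all introns, ends inside an intron made up 0.538% (0.345 to 0.800) of Akr1b7 reads in replicate 1 and 9.58% (7.91 to 11.5) in replicate 2, intervals that did not overlap. Model ends are those of the model, which groups reads, and need not be the ends of single reads.

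Akr1b8 held a like structure in replicate 2. A 4-exon model of 4303 nt that ran on into intron 4, up to 34361970, had 0 reads in replicate 1 and 11 in replicate 2, as many as the annotated Akr1b8-201 with its 10 exons and 1358 nt. Ends in intron 4 made up 12 of 25 Akr1b8 reads in replicate 2 (48.0%, 27.8 to 68.7) and 0 of 213 in replicate 1. In Akr1b10 an annotated 3-exon model, Akr1b10-205, which ends in intron 3, had 14 reads in replicate 1 and 0 in replicate 2. Beside these, 3 Akr1b7 reads in replicate 1 and 1 in replicate 2 ended in intron 9, and 2 and 3 reads of Akr1b3 ended inside an intron.

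Taking the most used model against all others, 3 of 5 tested genes differed between the libraries by Fisher's exact test, beside 28.7% of 4733 genes, 13.1% with a share higher in replicate 1 as in these 3. Akr1b7-201 held 95.0% of Akr1b7 reads in replicate 1 and 56.6% in replicate 2 (adjusted p 2.26e-201). Akr1b8-201 held 209 of 213 reads (98.1%) and 11 of 25 (44.0%; adjusted p 2.74e-11), and Akr1b3-201 held 97.3% and 78.9% (adjusted p 1.15e-05). Akr1a1-201, at 94.4% and 95.5%, and Akr1b10-201, at 81.6% and 81.2%, were not called (adjusted p 0.956 and 1, Fisher's exact test). The call of Akr1b8 was lost when incomplete matches were left out, with a difference of -13.97 points and an adjusted p of 0.113.

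The share of reads on annotated models gave the same 3 calls of 5, all higher in replicate 1, beside 22.0% of 4806 genes called and 6.80% called in that direction. Together the 8 genes had 95.1% (94.5 to 95.6) of reads on annotated models in replicate 1 and 61.7% (59.0 to 64.3) in replicate 2. Over all annotated genes these shares were 78.7% and 74.1%. Akr1b7 made up 68.6% of the members' reads in replicate 1 and 81.9% in replicate 2, so the joint share is mostly that of 1 gene. In replicate 2 the annotated share was 56.6% in Akr1b7 and 44.0% in Akr1b8. It was 95.5% in Akr1a1, 80.7% in Akr1b3 and 81.2% in Akr1b10. Incomplete matches took 2.60% of Akr1b7 reads in replicate 1 and 20.4% in replicate 2, and known sites in a new combination 0.740% and 19.7%. Unannotated splice sites, at 1.39% and 0.995%, had overlapping intervals in the 2 libraries.

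**Figure D4:**
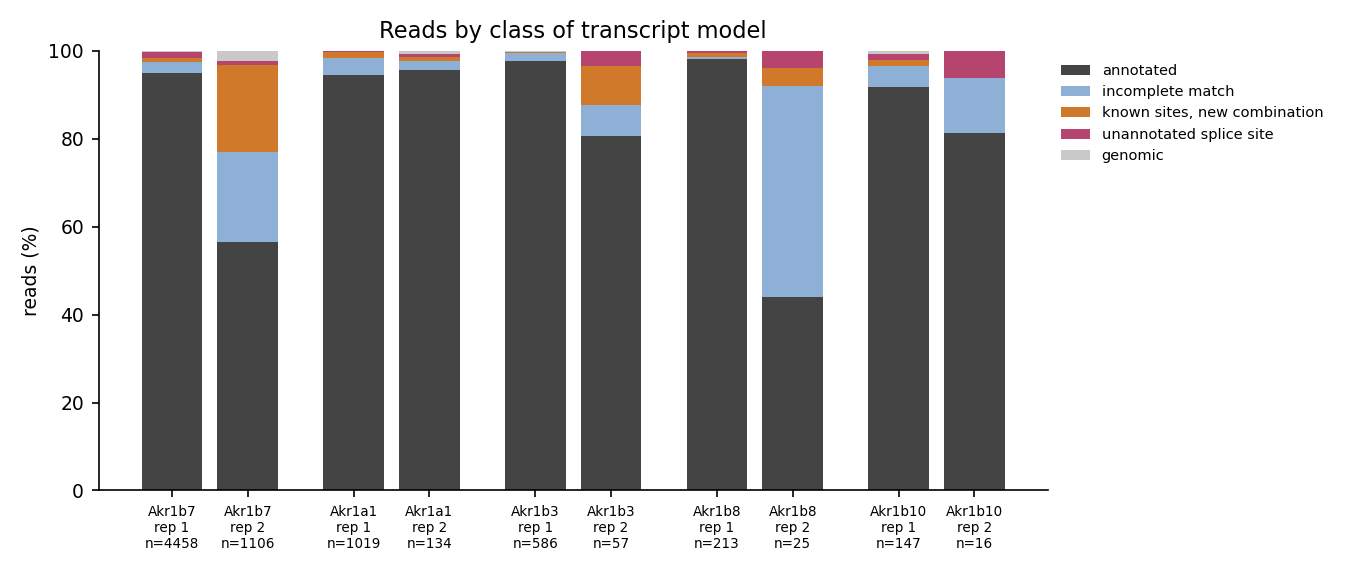
Reads of the 5 genes that had 10 reads or more in both libraries, as percent by class of model, with the number of reads under each bar. The annotated part of Akr1b7 was 95.0% in replicate 1 and 56.6% in replicate 2, while that of Akr1a1 was 94.4% and 95.5%.

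The most read unannotated splice site of Akr1b7 was an exon 9 that ended 14 nt later, at 34421159, in 38 of 4411 reads that joined exon 9 to exon 10 in replicate 1 (0.861%, 0.610 to 1.18) and in 5 of 856 in replicate 2 (0.584%, 0.190 to 1.36). The intervals overlapped. Ends 4 and 7 nt later had 7 and 4 reads in replicate 1 and 4 and 1 in replicate 2. None of these extensions is a multiple of 3. Of the unannotated spliced structures of Akr1b7, 18 occurred in both libraries, 48.6% of the 37 in replicate 1 and 37.5% of the 48 in replicate 2. These 18 held 176 of 211 and 327 of 455 reads on such structures. The like overlap over all genes was not worked out, so whether these shares are usual at this depth is not known.

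Most Akr1b7 reads were on models that start near the annotated start in both libraries. Models starting within 50 nt of the annotated start held 97.5% of its reads in replicate 1 and 91.6% in replicate 2. Reads on Akr1b7-201, 4233 and 626, take the annotated start by assignment, so these shares do not place the starts of single reads. The bases before the annotated start are given because an unannotated upstream exon, from 34412198 to 34412305, lies within them and had 2 reads in replicate 1. The sequence is from the RefSeq promoter table on GRCm38.p6, plus strand, chr6:34412112-34412333, with capitals for matches, on either strand, of the motifs named after it.
Akr1b7 promoter: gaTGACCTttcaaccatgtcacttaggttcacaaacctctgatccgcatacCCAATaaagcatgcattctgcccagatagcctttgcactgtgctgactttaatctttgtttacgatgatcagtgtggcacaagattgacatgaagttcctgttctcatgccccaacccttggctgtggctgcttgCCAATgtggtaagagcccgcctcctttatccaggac
The search on both strands covered AGGTCA, the core of nuclear receptor sites, the TATA box as TATAAA, the box named CCAAT, and the cyclic AMP response element as TGACGTCA. It ran over 300 bases from 250 before to 50 after the RefSeq start. AGGTCA occurred in 16.3% of 32851 such windows, TATAAA in 13.6%, CCAAT in 37.4% and TGACGTCA in 1.79%. Akr1b7 had AGGTCA on the opposite strand and CCAAT at 2 places, Akr1b10 had AGGTCA on the opposite strand, and Akr1b8 had TATAAA on the opposite strand. No match of TGACGTCA was present in these 3 windows, and a match is a description of letters only. The promoter of Akr1b3 was not used here.

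Rare reads joined neighbouring genes. A read of replicate 1 assigned to Akr1b10 began with the first 2 exons of Akr1b8, and 2 reads assigned to Akr1b7 in replicate 1 began with Akr1b8 exons. In replicate 2, 1 read assigned to Akr1b3 held an exon within Gm13857. Gm13857, a transcribed pseudogene on the minus strand, overlaps Akr1b7 over 3747 nt and had 8 reads in replicate 1 and 13 in replicate 2. Its end, 34419396, is also the start of an Akr1b7 model without its first 5 exons that kept introns 6 and 9 and had 0 and 38 reads. Whether counting used the strand is not given in the sources used here, so reads of Akr1b7 and Gm13857 may not be told apart in this stretch.

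In Akr1a1, the most read unannotated models lacked 5′ exons, with 14 reads for a 4-exon form in replicate 1, and 14 and 3 reads for an 8-exon form. Akr1c18-201, with 9 exons, had 9 reads in replicate 1 and 3 in replicate 2, and Akr1c18-202, which skips the 78 nt of exon 4, had 2 and 0. Akr1c14-201, of 2436 nt, had 1 and 2 reads. Akr1e1-201, of 3463 nt with a last exon of 2549 nt, had 56 of 62 reads in replicate 1 and 4 of 8 in replicate 2, and was not tested at this depth.

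The libraries were then compared gene by gene. An exact binomial test (two-sided) asked how the reads of a gene divided between the TMM-scaled libraries, with Benjamini-Hochberg adjustment over the 9809 genes with at least 10 reads. It compares the reads of these 2 libraries, not conditions. All 7 tested members were called, each higher in replicate 1, while 66.2% of all genes were called and 35.6% were called higher in replicate 1. Akr1c14, with 3 reads in all, was not tested. The median log2 ratio of replicate 2 over replicate 1 was -2.93 for the 7 members and -0.01 for all genes tested.

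Akr1b3 showed the largest ratio among the 7 tested genes, 10.3-fold higher in replicate 1 (7.87 to 13.8), followed by Akr1b10, 9.24-fold (5.50 to 16.6), and Akr1b8, 8.57-fold (5.65 to 13.5). Akr1e1 was 7.79-fold higher (3.72 to 18.8) and Akr1a1 7.65-fold (6.38 to 9.23). Akr1b7 was 4.05-fold higher (3.79 to 4.33), an interval below those of Akr1a1, Akr1b3, Akr1b8 and Akr1b10. On annotated models alone, its log2 ratio was -2.82 in place of -2.02. The values of Akr1a1, Akr1b10, Akr1b3 and Akr1b8 were then -2.97, -3.39, -3.68 and -4.25. Akr1c18 was 4.02-fold higher (1.09 to 22.2; adjusted p 0.0328, exact binomial test). This last call was lost with total counts, DESeq2 size factors or no filter on low counts, at adjusted p-values of 0.149, 0.0532 and 0.0535.

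These ratios moved with transcript length. The main models of the 6 tested genes other than Akr1e1 were between 1200 and 1420 nt long, and the length curve over all genes gave log2 ratios between -3.35 and -2.77 there. With that curve removed, 3 of 7 members were called, beside 42.4% of 9173 genes (21.1% higher in replicate 1 and 21.3% higher in replicate 2). Akr1b7 was then higher in replicate 2, at 1.14 on the log2 scale, Akr1b3 higher in replicate 1, at -0.49 (adjusted p 0.0282, exact binomial test), and Akr1e1 higher in replicate 1, at -4.39. Akr1a1, Akr1b8 and Akr1b10 were within 0.26 of 0 and were not called, and Akr1c18, at 1.51, was not called either. Akr1e1 stood apart by its annotated model of 3463 nt, for which the curve gave 1.503, while its reads moved the other way. Its unannotated spliced models that reached the last exon ended between 4592492 and 4592897, short of the annotated end at 4590750. Among them was a 10-exon model of 1341 nt, and the curve gave -2.87 at 1387 nt. The value of -4.39 rests on the annotated length, and whether the reads were that long was not tested. Akr1b7 is taken at 1281 nt although many of its reads in replicate 2 kept introns. With annotated models alone and the curve removed, an alternative added after seeing the data, Akr1b7 was at 0.92 and still called, and Akr1b3, at -0.28, was not, beside 37.9% of genes called.

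**Figure D5:**
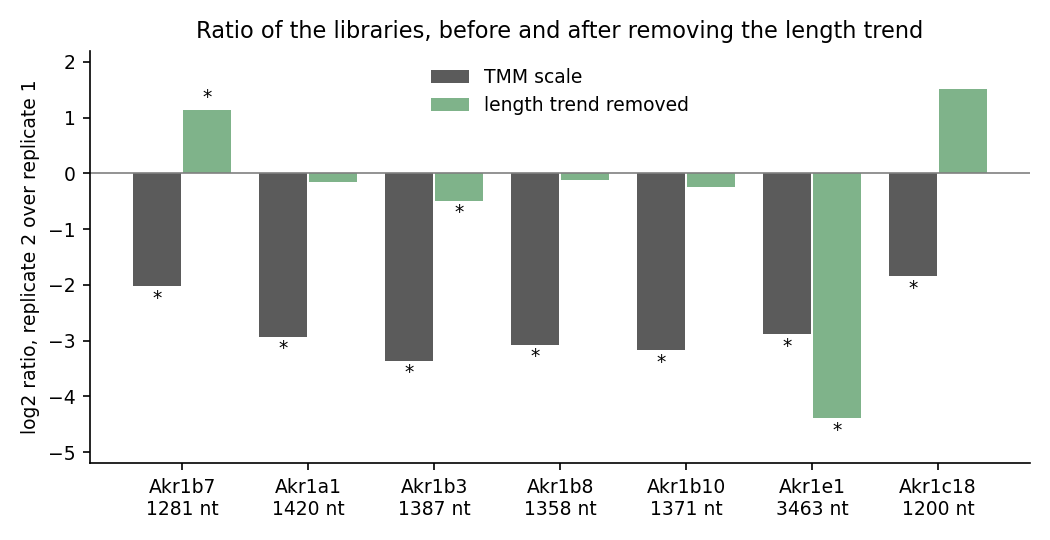
Log2 ratio of replicate 2 over replicate 1 for the 7 tested genes, on the TMM scale and with the length trend removed, with the length of the main model under each name and a star where the adjusted p passed 0.05. All 7 grey bars lie below 0, and of the green bars Akr1b7 lies at 1.14 and Akr1e1 at -4.39.

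Other aldo-keto reductases went both ways. Akr1cl, an Akr1c-like gene, had 4766 reads (5882 CPM) in replicate 1 and 356 reads (606 CPM) in replicate 2. Akr1d1, the 5-beta-reductase of steroids, had 363 reads (448 CPM) and 3334 reads (5671 CPM). For each Akr1cl read there were 0.935 Akr1b7 reads (0.898 to 0.975) in replicate 1 and 3.11 (2.75 to 3.51) in replicate 2. For each Akr1d1 read there were 12.3 (11.03 to 13.7) and 0.332 (0.310 to 0.355). Which of the 3 genes led thus differed between the libraries: Akr1cl in replicate 1 and Akr1d1 in replicate 2. Of the 12 other genes of the superfamily 7 had reads and 4 were tested: Akr1cl (log2 ratio -3.75) and Akr7a5 (-4.34), an aflatoxin aldehyde reductase, were higher in replicate 1, Akr1d1 (3.19) was higher in replicate 2, and Kcnab3 (-0.92) was not called. Once the length trend was removed, Akr1cl (-2.05) and Akr1d1 (2.35) kept their calls, Kcnab3 (-1.45) was called higher in replicate 1, and Akr7a5 (-1.19) was not called (adjusted p 0.0916, exact binomial test). Akr1c13, with 6 and 3 reads, Kcnab1, with 4 and 3, and Kcnab2, with 1 and 6, were not tested. Akr1c6, Akr1c12, Akr1c19, Akr1c20 and Akr1c21 had 0 reads in both libraries.

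Genes of neighbouring pathways were read for comparison. Of 17 other enzymes of carbonyl and polyol metabolism, 10 were called higher in replicate 1, 5 were called higher in replicate 2, and 2 missed the threshold, beside 35.6% and 30.6% of all genes in those directions. Highest by mean CPM were Adh1, an alcohol dehydrogenase, with 7880 and 1112 reads (log2 ratio -2.83), Aldh2, the mitochondrial aldehyde dehydrogenase, with 527 and 898 (0.76), and Aldh9a1, another aldehyde dehydrogenase, with 77 and 192 (1.30). With the length trend removed, 6 were called toward replicate 1 and 3 toward replicate 2, 8 missed the threshold, beside 21.1% and 21.3% of all genes, and Aldh2 turned to -0.70.

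Of the 4 genes of side-chain cleavage, the step that releases isocaproaldehyde, 2 were called in each direction. Of all genes, 35.6% were called higher in replicate 1 and 30.6% higher in replicate 2. Star, which brings cholesterol to the enzyme, had 7804 and 13750 reads (log2 ratio 0.81), Cyp11a1, the cleavage enzyme, 6531 and 3408 (-0.95), Fdx1, the electron donor adrenodoxin, 671 and 158 (-2.09), and Fdxr, the reductase of adrenodoxin, 756 and 978 (0.36). With the length trend removed, 2 were again called in each direction, beside 21.1% and 21.3% of all genes. They were not the same ones. Star turned from higher in replicate 2 to higher in replicate 1, at -0.60, and Fdx1 turned the other way, at 1.86, while Cyp11a1 was at -0.40 and Fdxr at 1.44. Of 12 prostaglandin genes, 9 were tested, of which 4 were higher in replicate 1, 3 higher in replicate 2 and 2 not called, beside 35.6% and 30.6% of all genes. With the length trend removed, 3 were higher in replicate 1, 1 was higher in replicate 2 and 5 were not called, beside 21.1% and 21.3% of all genes. Highest by mean CPM were Ptges3, a prostaglandin E synthase and co-chaperone, with 186 and 71 reads (-1.39), Ptgr2, a prostaglandin reductase, with 28 and 115 (2.01; 0.63 and not called with the trend removed, adjusted p 0.0702, exact binomial test), and Ptgis, the prostacyclin synthase, with 37 and 39 (0.07, not called). Ptgfr, the receptor of prostaglandin F, had 0 reads in both libraries.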

How the data were processed

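Long-read RNA-seq of 2 adrenal libraries was used as deposited. Per the file headers, the deposited tables give raw read counts per TALON transcript model (mm10, GENCODE M21), with a separate set of models for each library and only models that had reads. For the aligner and the platform: not given in the sources used here. Structures came from the deposited model annotations, matched between libraries by junction chain, and sequences from GENCODE M21 transcripts and RefSeq tables. Counts were summed per gene and scaled to CPM over 810239 and 587861 reads.

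Tests were the exact two-sided binomial test on TMM-scaled library sizes (edgeR 4.0.16; pseudocount 0.5 reads for log2 ratios) and Fisher's exact test (scipy 1.17.1), with Benjamini-Hochberg adjustment over all genes or introns tested at 0.05. Genes needed 10 reads over both libraries, and structure tests 10 in each. The length curve was a lowess fit with a span of 0.3 on genes with at least 20 reads. A retained intron was counted in spliced models whose exon spanned it whole. Tests were checked on simulated counts with counting error alone and no length trend, so the check does not cover other differences between these libraries. Members and lists were chosen with earlier results of these data known. All 8 members, related enzymes with reads, the 3 genes of each pathway list with the highest mean CPM, annotated models with at least 1% of reads and the most read unannotated ones are named. Fdx1 and Cyp11b2 were added after their values were seen. Alternatives were other scalings (DESeq2 1.42.0 among them), filters, model sets and the length curve.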

Additional observations from a re-analysis of the deposited data

Results flagged for a closer look

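Reads on the strand opposite to a member gene entered no comparison and stood above the 3 reads that a count of 0 allows in 3 cases. Within Akr1b7 there were 12 such reads in replicate 1 and 15 in replicate 2, of which 8 and 13 were assigned to the pseudogene Gm13857 and 1 in replicate 2 to Akr1b3. Within Akr1a1 there were 7 in replicate 1 and 0 in replicate 2, all 7 unspliced and outside annotated genes.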

How the results depend on the processing

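With the length trend removed, 2 members were higher in replicate 1 and 1 in replicate 2, in place of 7 and 0, and 3889 of all genes were called in place of 6497. On annotated models with the trend removed, added after seeing the data, these counts were 1, 1 and 2791. With the trend removed, Akr1b7 turned to 1.14 and Akr1c18 to 1.51, and on annotated models as well to 0.92 and 2.17, with Akr1a1 at 0.33 and Akr1b10 at 0.0693. Of these reversed values only those of Akr1b7 passed the test. With at least 50 reads 4037 genes were called, from fewer genes tested. The most used model differed in 723 genes with models of at least 2 exons and in 772 without incomplete matches, in place of 1359, and the annotated share in 500 with models of at least 2 exons, in place of 1057. Of all introns 661 were called with unspliced models and 220 without incomplete matches, in place of 408; the cause of these changes was not tested. The Akr1b7 introns 3, 6 and 9 kept their calls in each of the 3 alternatives run for them, but without incomplete matches the difference fell from 13.1 to 6.92 points at intron 6 and from 12.7 to 0.949 at intron 9. That setting also leaves out reads that kept intron 9 and ran between both annotated ends, so it cannot check the difference there. The mean level of the 8 members, 5159 CPM, was 2298 without replicate 1 and 8020 without replicate 2. Total counts in place of TMM moved the median log2 ratio over all genes from -0.01 to 0.46, and 30.3% of genes were then called higher in replicate 1 against 35.6%. Depth limits Akr1c18, Akr1c14 and Akr1e1 most, with 3, 2 and 8 reads in replicate 2. No paired analysis was possible because the study has 1 group, so that no groups share replicate numbers.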
